A study of Rattus norvegicus with 6 samples.

Results

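The genes of elastic fibres and of the microfibrils that carry them were followed in rat Achilles tendon through the first postnatal week. They were 10 of 14217 genes measured: elastin (Eln), the fibrillins Fbn1 and Fbn2, the fibulins Fbln1, Fbln2, Fbln5 and Efemp2 (fibulin-4), the microfibril-associated proteins Mfap4 and Mfap5, and the matrix glycoprotein Emilin1. They were chosen by symbol, among probe sets that the platform annotation gives to 1 gene, and each gene was read from its probe set with the highest mean log2(intensity + 1) over 6 arrays. Of the 14 probe sets found, the other 4 served as a check on Eln, Fbn1, Fbln1 and Efemp2. Achilles tendons were taken at post-natal day 7 (3 arrays) and post-natal day 1 (3 arrays), and every array carried RNA pooled from 2 or more rats. No treatment is labelled, and the labels name neither strain, sex nor genotype. Since the replicates are pools, each p-value is set against the variation from pool to pool.

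Elastic fibres let a tissue stretch and recoil. Cells first lay down microfibrils of fibrillin, then deposit tropoelastin on them, and fibulin-4 and fibulin-5 bring tropoelastin together with the lysyl oxidases that cross-link it. Fibrillins also hold latent TGF-beta complexes in the matrix through the latent TGF-beta binding proteins. In tendon, elastin and fibrillin lie between collagen fascicles and around rows of tendon cells, and fibrillin-2 is known as the fibrillin of embryonic and early postnatal tissue.

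The tendon markers were bright at both ages. Scx, the tendon transcription factor, read 797, 803 and 835 on day 7 and 747, 897 and 603 on day 1 (replicates 1, 2 and 3, the order used throughout), in linear intensity units. The ages overlapped for Scx, but not for most of the list. Of the 9 measured tendon markers, 6 were higher on every day 7 array and 0 lower, against 14% and 19.1% of all genes. No marker of the 9 lists used (86 of 95 genes measured) averaged at or below the highest negative control reading of 4.76 at either age. Skeletal muscle RNA was present on every array, as Acta1, the actin of skeletal muscle, averaged 11728.5 ± 1306 on day 7 and 12798 ± 851 on day 1 (SD, n = 3 each). The 14 measured muscle markers gave 48056, 61793 and 40636 when summed on day 7, against 76580.3, 63967 and 79075 on day 1. The 10 adipocyte markers gave 4729, 3054 and 6391 on day 7, against 1595, 1761 and 1801 on day 1. The nerve markers summed to 5893 and 8991 on day 7 replicates 1 and 3 and to between 1959 and 2362 on the other 4 arrays. Day 1 replicate 1 stood apart in the 8 measured epidermis markers, which summed to 5786 on it and to between 172 and 432 on the other 5 arrays. The 3'/5' ratio of beta-actin, a measure of RNA quality, was 2.40, 2.17 and 3.35 on day 7 and 2.44, 2.85 and 1.80 on day 1.

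None of the 10 genes passed the test between the ages (limma on log2(intensity + 1), adjusted p under 0.05 over all 31042 probe sets), against 5.08% of all genes (1.93% higher on day 7 and 3.15% lower). At an unadjusted p under 0.05 there were 4 genes, Eln and Fbln2 higher on day 7 and Fbn2 and Fbln1 lower, against 27.6% of all genes. In the same 4 genes the 3 day 7 arrays did not overlap the 3 day 1 arrays, against 33.1% of all genes (14% higher on day 7 and 19.1% lower). Read against these shares, the counts show nothing particular to the group. The median log2 change of the 10, day 7 minus day 1, was 0.05, and over all genes it was -0.01. With 3 arrays of each age precision is limited, and the smallest log2 change that would have passed ran from 0.52 for Mfap5 to 1.12 for Fbn2. In whole tendon, fewer cells of a type and less RNA per cell cannot be told apart.

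**Figure D1:**
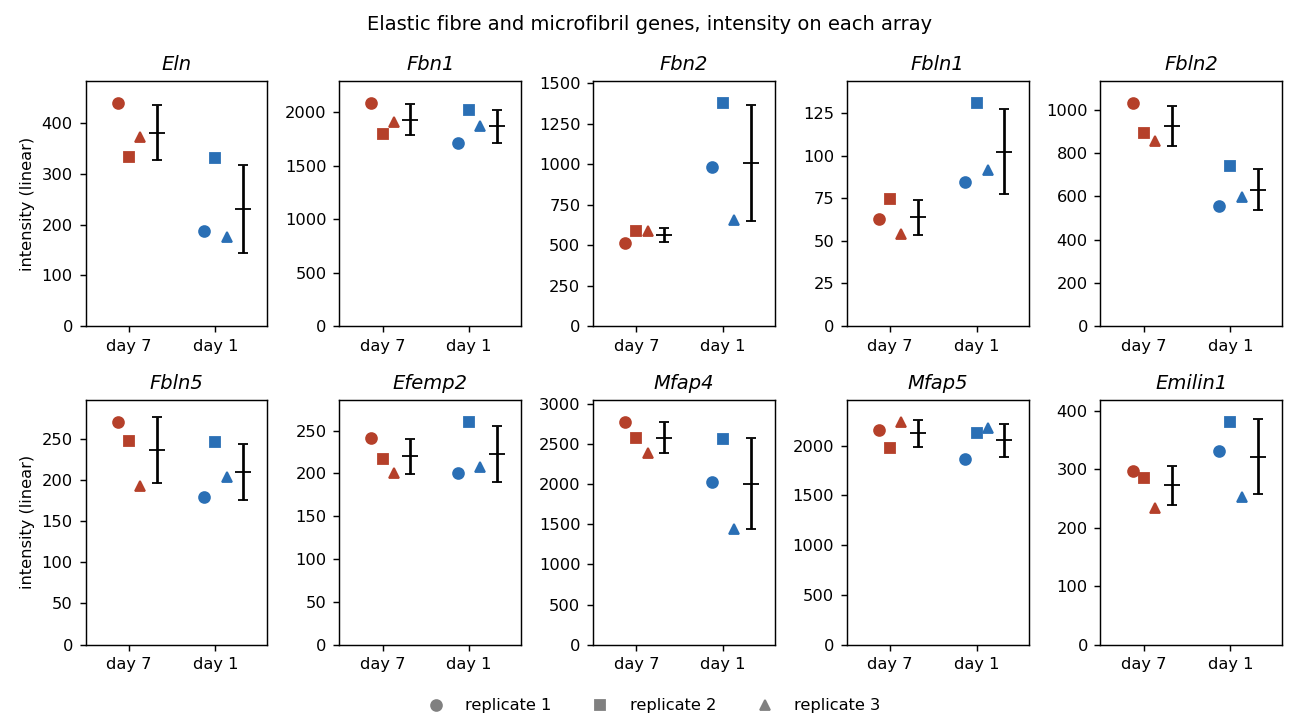
Linear probe set intensity (vertical axis, from 0) of the 10 genes on each array, day 7 at the left of each panel and day 1 at the right. Symbols mark the replicate number, and the bar gives the mean and SD of 3 arrays. Day 7 arrays lie apart from day 1 arrays for Eln, Fbn2, Fbln1 and Fbln2, and the ages overlap for the other 6 genes.

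Elastin is the rubber-like core protein of the fibre. Eln read 439, 333 and 372 on day 7, against 188, 330.5 and 175 on day 1. The ages were separated only by the gap between day 7 replicate 2 and day 1 replicate 2, which were nearly level, while the other day 1 arrays lay far lower. The mean was 382 ± 53.9 on day 7 and 231 ± 86.3 on day 1 (SD, n = 3 each), a log2 change of 0.77 (SE 0.24, 95% interval 0.22 to 1.33, 1.71-fold; limma adjusted p = 0.117). Only 2.20% of all genes had a higher log2 change. The second, dimmer Eln probe set read 87.6, 69.4 and 104 on day 7 and 60.2, 77.1 and 45.5 on day 1, so the ages overlapped on it (log2 change 0.52, limma adjusted p = 0.21). Without day 1 replicate 2, the day 1 array on which it was highest, Eln passed with a log2 change of 1.06 (limma adjusted p = 0.0309). Of the 6 fits without 1 array, this was the only 1 that passed. The change was 0.60 without day 1 replicate 3 (0.278) and 0.67 without day 7 replicate 1 (0.288). Without day 1 replicate 1, the array high in epidermis markers, the log2 change of Eln was 0.65 (limma adjusted p = 0.299).

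Eln and the medians of several marker lists were higher on day 7 than on day 1. Over all genes, 14% were higher on every day 7 array and 19.1% lower, the shares to set beside the counts of each list below. Relative to the mean of the 6 arrays, its log2 value was 0.60, 0.20 and 0.36 on day 7 and -0.62, 0.19 and -0.72 on day 1. The median of the 9 measured tendon markers was 0.50, 0.20 and 0.15 on day 7 and -0.16, 0.06 and -0.69 on day 1. Of these 9, 2 passed as higher on day 7, against 1.93% of all genes, and 0 as lower. They were Dcn (log2 change 0.79; limma adjusted p = 0.0277) and Comp (2.28; 0.0285). That of the 8 measured cartilage markers was 1.05, 0.55 and 0.21 on day 7 and -0.60, -0.13 and -0.92 on day 1, with 5 of the 8 higher on every day 7 array and 0 lower. The median of 10 smooth muscle and pericyte markers, cells that make elastin in vessel walls, was 0.20, 0.16 and 0.15 on day 7 and 0.08, -0.10 and -0.34 on day 1. That list went both ways, with 4 genes higher on every day 7 array (Mylk, a myosin kinase, by 0.81 on the log2 scale) and 3 lower (Tagln, an actin-binding protein, at -0.62). Its sums overlapped, at 2588, 2472 and 2154 on day 7 and 2658, 2192 and 2662 on day 1. The skeletal muscle median ran the other way, at -0.40, 0.06 and -0.72 on day 7 and 0.43, 0.19 and 0.51 on day 1. Of the 14 measured skeletal muscle markers, 9 were lower on every day 7 array and 1 higher (Myh2, a myosin heavy chain, by 2.71). The adipocyte median also separated the ages, at 1.11, 0.48 and 1.24 on day 7 and -1.16, -0.80 and -1.13 on day 1. Of the 10 adipocyte markers, 9 were higher on every day 7 array and 0 lower, and 8 passed as higher, against 1.93% of all genes. The median of the 8 measured Schwann cell and nerve markers was 0.61, -0.71 and 0.96 on day 7 and -0.60, -0.22 and -0.53 on day 1. Of these markers, 3 were higher on every day 7 array and 1 was lower (Ngfr, at -1.24). On day 7 the dimmer Eln probe set had the same order as the adipocyte and nerve medians, with replicate 3 highest and replicate 2 lowest (0.29, -0.04 and 0.54). The brighter Eln probe set was highest on replicate 1. The part of these cell types in the Eln difference was not tested.

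The 2 fibrillins are long, closely related glycoproteins that polymerise into the beaded microfibril. Fbn2 read 511, 588 and 587 on day 7, against 984, 1375 and 657 on day 1. The day 7 arrays were close together, and the day 1 arrays differed by more than 2-fold among themselves, with replicate 3 only a little above day 7. The means were 562 ± 43.8 on day 7 and 1005 ± 359 on day 1 (SD, n = 3 each), a log2 change of -0.78 (SE 0.24, 95% interval -1.34 to -0.22; limma adjusted p = 0.117). A lower log2 change was found in 3.63% of all genes. Fbn2 was -0.52 without day 1 replicate 2 and -1.05 without day 1 replicate 3 (limma adjusted p = 0.17 and 0.0542), and -0.76 without day 1 replicate 1 (0.266).

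Fbn1, the main fibrillin of mature tissue, read 2083, 1792 and 1912 on day 7, against 1711, 2020.0 and 1871 on day 1. The ages overlapped, and both the lowest array and the second highest were from day 1. Its log2 change was 0.05 (SE 0.12, 95% interval -0.22 to 0.32; limma adjusted p = 0.847). The second Fbn1 probe set gave 0.04, with 1863, 1630.0 and 1989 on day 7 and 1531, 1957 and 1869 on day 1. As a ratio of day 7 to day 1, the Fbn1 interval ran from 0.859 to 1.24, which bounds the change without showing that the levels were the same.

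The pair was compared directly through the log2 difference between Fbn2 and Fbn1 on the same array, in which the brightness of each probe set cancels. Relative to its mean over the 6 arrays, the difference was -0.66, -0.24 and -0.34 on day 7, against 0.57, 0.81 and -0.14 on day 1. All day 7 arrays lay below all day 1 arrays. The mean difference was -0.82 on the log2 scale, that is, 0.565 times the day 1 ratio (exact two-sided permutation test over 6 arrays, p = 0.1, the smallest p that 3 against 3 arrays can give; 0.15 adjusted over the 3 pairs compared). It ranged from -1.10 to -0.62 when arrays were left out. The same difference between Eln and Fbn1 was 0.46, 0.28 and 0.35 on day 7 and -0.48, 0.10 and -0.71 on day 1 (mean difference 0.72; exact permutation p = 0.1, adjusted 0.15).

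**Figure D2:**
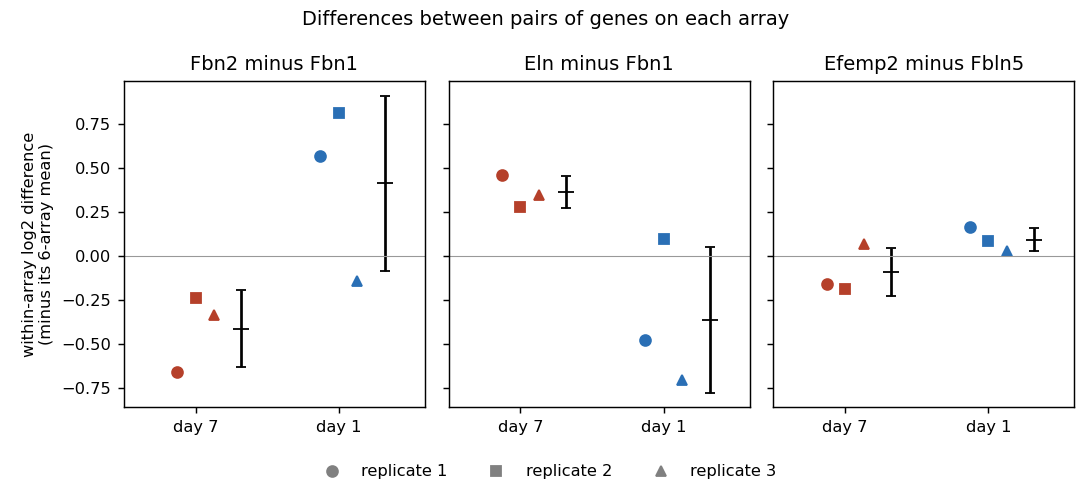
Log2 difference between 2 genes on the same array, relative to its mean over the 6 arrays (vertical axis), with day 7 left of day 1 and the mean and SD of 3 arrays beside the points. The ages lie apart for Fbn2 minus Fbn1 (day 7 lower) and for Eln minus Fbn1 (day 7 higher) and overlap for Efemp2 minus Fbln5.

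The bases before the annotated transcription starts of Fbn2, Fbn1 and Fbln2 are given for the pair of fibrillins compared above and for Fbln2, which had the smallest unadjusted p of the 10 genes. The sequences are the 250 bases before the start on the gene's strand, 5' to 3', from RefSeq (build GRCr8), where 6 of the 10 genes were found. Capitals mark GC boxes (GGGCGG on either strand), one of 4 motifs searched on both strands beside the TATA box (TATAAA), the CCAAT box (CCAAT) and the AP-1 site (TGANTCA).
Fbn2 (chr18:53901993-53902242, minus strand): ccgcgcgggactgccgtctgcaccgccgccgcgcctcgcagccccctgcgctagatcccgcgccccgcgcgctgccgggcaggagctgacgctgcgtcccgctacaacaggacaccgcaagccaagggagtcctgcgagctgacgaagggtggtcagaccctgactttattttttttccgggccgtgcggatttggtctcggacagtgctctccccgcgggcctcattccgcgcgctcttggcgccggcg
Fbn1 (chr3:133203391-133203640, minus strand): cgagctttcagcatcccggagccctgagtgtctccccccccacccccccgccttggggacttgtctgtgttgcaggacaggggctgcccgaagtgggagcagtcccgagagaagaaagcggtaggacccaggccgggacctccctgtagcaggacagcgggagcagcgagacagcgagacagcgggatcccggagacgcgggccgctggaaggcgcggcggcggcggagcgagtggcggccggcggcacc
Fbln2 (chr4:125261409-125261658, plus strand): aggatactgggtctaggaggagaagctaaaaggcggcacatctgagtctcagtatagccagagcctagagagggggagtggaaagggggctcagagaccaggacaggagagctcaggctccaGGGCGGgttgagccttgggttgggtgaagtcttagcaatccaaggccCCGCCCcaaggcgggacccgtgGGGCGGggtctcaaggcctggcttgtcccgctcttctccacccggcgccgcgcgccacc
The Fbn2 and Fbn1 windows are 70.0% and 71.2% G and C, against a median of 51.2% over 33469 promoters, and hold none of the 4 motifs. The Fbln2 window is 64.0% G and C and holds 3 GC boxes, a motif found in 30.5% of all promoter windows of that length. The TATA box is in 12.9% of them, the CCAAT box in 34% and the AP-1 site in 6.34%, and no TATA box or AP-1 site is in any of the 6 windows. A match here is a description of the letters, and the arrays hold no measurement of binding.

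The fibulins are calcium-binding glycoproteins that link elastin, microfibrils and basement membranes. Fbln2, which binds fibrillin and tropoelastin, read 1031, 895 and 854 on day 7, against 557, 739 and 596 on day 1. Every day 7 array was above every day 1 array. The means were 927 ± 92.4 on day 7 and 631 ± 95.8 on day 1 (SD, n = 3 each), a log2 change of 0.56 (SE 0.14, 95% interval 0.23 to 0.89, 1.47-fold; limma adjusted p = 0.072). It passed with array weights (0.65; limma adjusted p = 0.033) and without day 1 replicate 2 (0.68; 0.0491), and was 0.48 without day 1 replicate 1 (0.216).

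Fbln1, a fibulin of elastic fibres and basement membranes, read 62.7, 74.7 and 54.1 on day 7, against 84.7, 131 and 91.7 on day 1. Every day 7 array was below every day 1 array, and day 1 replicate 2 lay far above the other day 1 arrays. The log2 change was -0.66 (SE 0.19, 95% interval -1.10 to -0.22; limma adjusted p = 0.0977), -0.47 without day 1 replicate 2 (0.149) and -0.78 without day 1 replicate 1 (0.15). A second Fbln1 probe set was dim, with 19.3, 18.9 and 18.6 on day 7 and 18.3, 21.0 and 16.5 on day 1. It showed no such separation (log2 change 0.03, limma adjusted p = 0.915), and with the mean of both probe sets the log2 change was -0.32. The Fbln1 difference thus rests on 1 of its 2 probe sets.

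Fbln5 and Efemp2 are the fibulins needed to assemble elastic fibres in mice. Fbln5 read 271, 248 and 193 on day 7, against 179, 246 and 203 on day 1, with the ages overlapping (log2 change 0.17, 95% interval -0.22 to 0.57; limma adjusted p = 0.589). Without single arrays its log2 change lay between 0.07 (without day 1 replicate 1 or day 7 replicate 1) and 0.32 (without day 7 replicate 3). Efemp2 read 242, 217 and 201 on day 7, against 200.2, 260.4 and 207 on day 1. Its highest and its lowest array were both from day 1, and the log2 change was -0.01 (95% interval -0.33 to 0.31; limma adjusted p = 0.975). Its other probe set gave -0.02. The log2 difference between Efemp2 and Fbln5 overlapped between the ages (mean difference -0.19; exact permutation p = 0.2, adjusted 0.2).

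Mfap4, a fibrinogen-related protein that binds tropoelastin and fibrillin, read 2783, 2581 and 2395 on day 7, against 2025, 2568 and 1444 on day 1. Day 1 replicate 2 lay among the day 7 arrays and the other day 1 arrays below them. The log2 change was 0.40 (SE 0.20, 95% interval -0.07 to 0.86; limma adjusted p = 0.293). It was 0.18 without day 1 replicate 3 and 0.59 without day 1 replicate 2. Mfap5, the microfibril glycoprotein MAGP-2, read 2155, 1975 and 2239 on day 7, against 1865, 2123 and 2173 on day 1. The ages overlapped (log2 change 0.05, 95% interval -0.21 to 0.31; limma adjusted p = 0.836). Emilin1, a glycoprotein at the interface of elastin and microfibrils, read 297, 285 and 234 on day 7, against 331, 381 and 253 on day 1. Here too the ages overlapped (log2 change -0.23, 95% interval -0.63 to 0.17; limma adjusted p = 0.482). The change was -0.10 without day 1 replicate 2, -0.12 without day 7 replicate 3 and -0.39 without day 1 replicate 3.

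**Figure D3:**
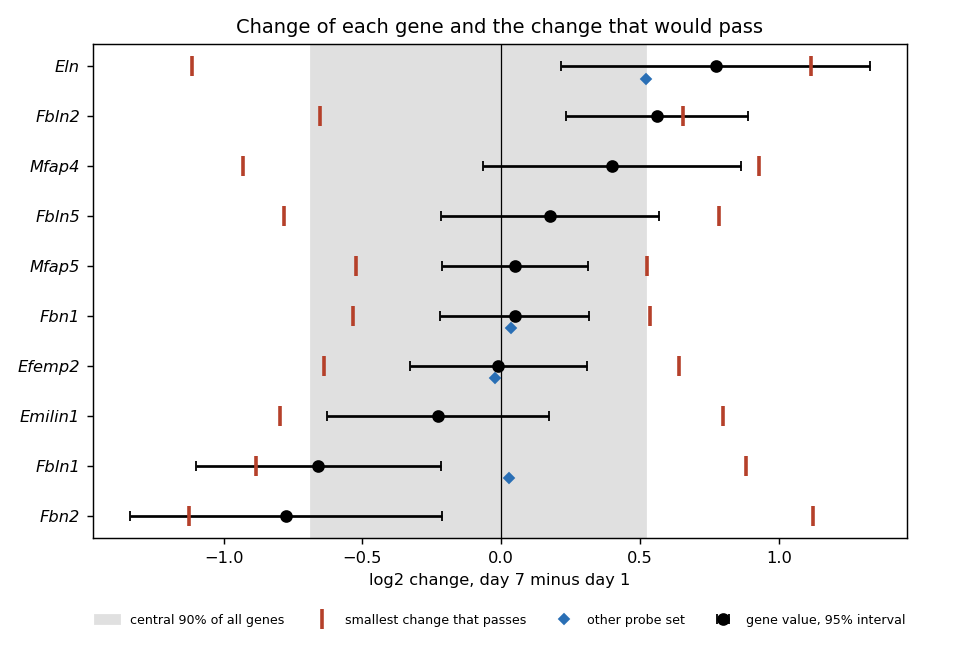
Log2 change, day 7 minus day 1 (horizontal axis), of the 10 genes with 95% intervals, the second probe set of 4 genes (diamonds) and the smallest change that would have passed for each gene (upright marks). The grey band holds the central 90% of all genes (-0.68 to 0.52), and no gene reaches its upright mark.

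Within each age, the 10 genes tended to peak on 1 array. Day 1 replicate 2 was the highest day 1 array for 9 of the 10 genes, all but Mfap5, whereas 34.8% of all genes were highest on it. Day 7 replicate 1 was the highest day 7 array for 7 of the 10, against 33.9% of all genes. The summed tendon markers peaked on the same arrays, so the peaks were not particular to the 10 genes. Their sums were 62812, 52859 and 48110.5 on day 7 and 37467, 44787 and 26703 on day 1. Fbn2 and Fbln1 stood 0.90 and 0.71 above their mean over the 6 arrays on day 1 replicate 2 on the log2 scale, while Eln on it was level with day 7 replicate 2. Of the day 1 arrays, this one had the lowest skeletal muscle median (0.19, against 0.43 and 0.51 on the others) and the highest tendon median (0.06, against -0.16 and -0.69). On day 7 the muscle median ran otherwise: it was lowest on replicate 3 (-0.72, against -0.40 and 0.06 on replicates 1 and 2), which was the highest day 7 array for 1 of the 10 genes. The day 7 tendon median was highest on replicate 1 (0.50, against 0.20 and 0.15 on replicates 2 and 3). The part of muscle or tendon RNA in these differences was not tested.

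**Figure D4:**
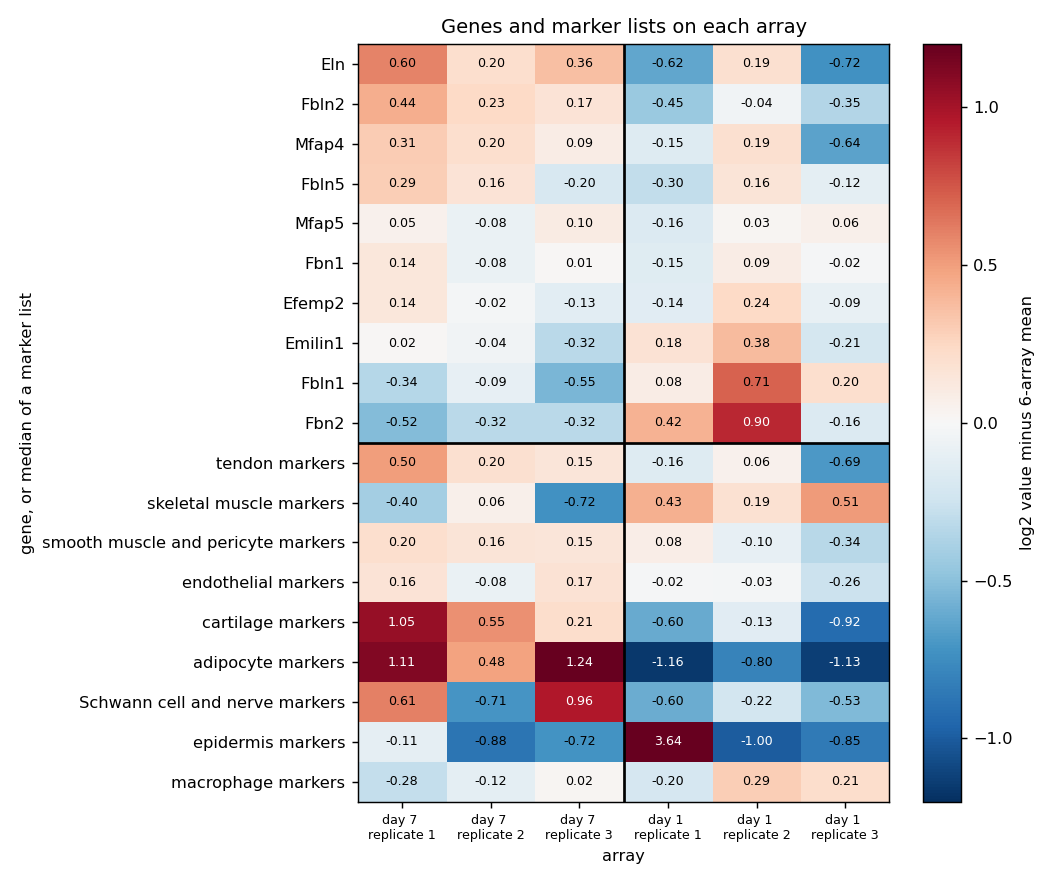
Log2 value minus the mean of the 6 arrays for the 10 genes (upper block) and for the median of each marker list (lower block), with day 7 arrays in the left 3 columns and day 1 arrays in the right 3. Day 1 replicate 2 is high for Fbn2 (0.90) and Fbln1 (0.71), and day 1 replicate 1 stands out in epidermis markers (3.64, beyond the end of the colour scale).

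The genes whose centred log2 values lay nearest to those of elastin and the fibrillins were found by the root mean square distance over the 6 arrays, among 6964 genes with a mean log2 value of at least 6. The nearest to Eln were Tc2n (distance 0.09), Col14a1, a fibril-associated collagen (0.11), and Adcy3, an adenylyl cyclase (0.12). Fbn2 lay nearest to Uhrf2 (0.15), to Ltbp2, a latent TGF-beta binding protein that binds fibrillin and fibulin-5 (0.17), and to Mogs (0.17). The nearest to Fbn1 were Uba6, Josd1 and Prkag1, at distances of 0.03 to 0.04, and Fbn1 itself varied little over the arrays. Ltbp2 read 79.2, 79.1 and 113 on day 7, against 181, 231 and 103 on day 1. As for Fbn2, day 1 replicate 2 was highest and day 1 replicate 3 lowest of its age, and on Ltbp2 the last of these overlapped day 7 (log2 change -0.86; limma adjusted p = 0.136).

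Other genes that build, bind or cut elastic fibres were taken from 6 lists with 56 of 64 genes measured. Of these 56, 1 rose and 2 fell, against 5.08% of all genes (1.93% higher on day 7 and 3.15% lower), so the count lies near that share. The arrays gave another picture: 18 of the 56 were higher on every day 7 array and 6 lower, against 14% and 19.1% of all genes. These lists were chosen with earlier results of these data known, and the difference from those shares was not tested. Which genes passed depended on the scaling, since with quantile normalization 4 passed as higher and 0 as lower. The 2 that fell, Itgb6 and Itga5 (below), kept their direction there without passing (log2 change -1.31 and -0.46). Adamtsl4, an ADAMTS-like protein that binds fibrillin-1 microfibrils, rose to 447, 494 and 395 on day 7, against 289, 300.2 and 259.8 on day 1. Its log2 change was 0.65, with an SE of 0.12 (limma adjusted p = 0.0362). It was the 1 gene called of 15 microfibril-associated and latent TGF-beta binding proteins (list median 0.11). Its day 7 arrays all lay above its day 1 arrays, yet leaving out any 1 of the 6 arrays ended the call, as did a replicate block (limma adjusted p = 0.09). The size of the change stayed between 0.57 and 0.73 in the fits without arrays and was 0.65 with the block. Adamtsl2, its relative, had a log2 change of 0.85 (limma adjusted p = 0.0635) and passed in 6 of 15 alternatives.

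All 4 measured lysyl oxidases, the enzymes that cross-link tropoelastin and collagen, had every day 7 array above every day 1 array, a pattern that 14% of all genes shared, and none passed. For Lox, read from 1 of its 2 probe sets, day 7 replicate 3 (1940) and day 1 replicate 2 (1938) were nearly level. Loxl1, whose product is targeted to elastic fibres, read 619, 568 and 466 on day 7, against 312, 345 and 393 on day 1, a log2 change of 0.65 with an SE of 0.14 (limma adjusted p = 0.0538). It passed in 4 of 15 alternatives. Loxl3 had a log2 change of 0.52 (limma adjusted p = 0.123), and the list median was 0.56.

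Of 11 measured receptors, 2 fell and none rose, against 3.15% and 1.93% of all genes. Both calls were lost with quantile normalization (limma adjusted p = 0.0543 for Itgb6 and 0.091 for Itga5) and with a pseudocount of 16 (0.0958 and 0.052). Itgb6, the beta subunit of an epithelial integrin that activates latent TGF-beta, fell by 1.37 on the log2 scale to 27.1, 45.2 and 28.2 on day 7, against 78.4, 61.7 and 130 on day 1 (SE 0.29; limma adjusted p = 0.0485). Itga5, of the fibronectin receptor that also binds fibrillin-1, fell by 0.56 to 50.9, 55.0 and 55.2 on day 7, against 77.0, 91.1 and 72.3 on day 1 (SE 0.12, limma adjusted p = 0.049). The highest Itgb6 value was on day 1 replicate 3, and without day 1 replicate 1, the array high in epidermis markers, the log2 change was -1.43. In the 6 fits without 1 array the Itgb6 call was kept in 2 and the Itga5 call in none.

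None of 4 EMILIN and multimerin relatives, 13 elastin-degrading proteases and inhibitors or 9 TGF-beta ligands, receptors and Smads passed. With 5.08% of all genes passing, a count of 0 in lists this small tells little. Of the 13 proteases and inhibitors, 5 were higher on every day 7 array and 0 lower, against 14% and 19.1% of all genes (list median 0.34). Each of the other 2 lists had 1 gene higher and 1 lower. Emilin2 had a log2 change of -0.41 (limma adjusted p = 0.134) and Mmrn1 one of 0.65 (0.217), which was 0.31 without day 1 replicate 3. The metalloproteinase inhibitor Timp2 had one of 0.84 (0.0501) and the cathepsin inhibitor Cst3 one of 0.51 (0.0964). Timp2 passed in 8 of 15 alternatives, quantile normalization and median centring among them, and Cst3 in 1. Tgfb3, a TGF-beta of developing tendon, had one of 0.50 (0.121) and Tgfbr1, a TGF-beta receptor, one of -0.41 (0.107), which was -0.16 with the mean of its probe sets. Mmp12, the macrophage elastase, was close to the negative controls at both ages, at 7.06 ± 1.82 on day 7 against 5.13 ± 0.625 on day 1 (SD, n = 3 each).

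**Figure D5:**
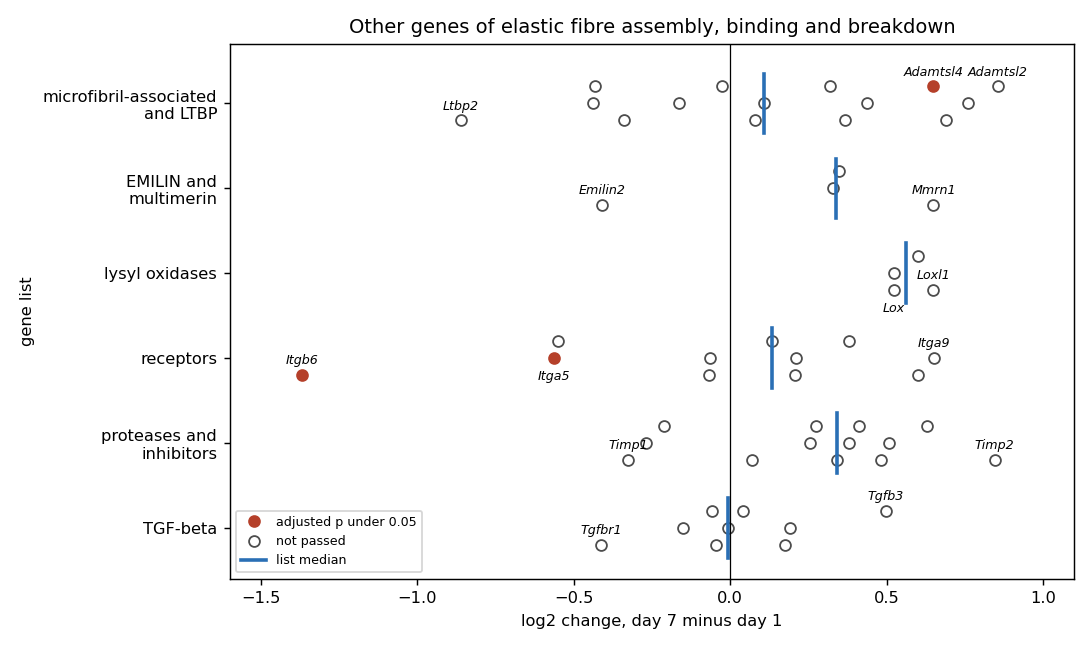
Log2 change, day 7 minus day 1 (horizontal axis), of 56 genes in 6 lists, 1 point per gene, with the list median as an upright line and filled points for genes at a limma adjusted p under 0.05. The filled points are Adamtsl4 (0.65), Itga5 (-0.56) and Itgb6 (-1.37), and the 4 lysyl oxidases lie between 0.52 and 0.65.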

How the data were processed

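The authors deposited linear intensity values that they had normalized, 1 for each probe set of each array. Per the submitters' processing notes MAS5 and RMA were used, without a role or version, and how background and scale were handled is not stated. Of 31099 probe sets, 57 controls were left out. A platform annotation gave 1 gene to 20826 of the 31042 tested. Symbols were checked by gene ID in RefSeq (GRCr8; 20758 matched, 0 updated).

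Values were taken as log2(intensity + 1) without further normalization. Day 7 was compared with day 1 by limma 3.58.1 in R 4.3.3 (lmFit and eBayes). Its two-sided p-values were adjusted over the whole table by Benjamini-Hochberg. The largest unadjusted p that passed was 0.00176, which sets the smallest change that passes. Differences between 2 genes were tested by exact permutation over arrays. The fit was tested on simulated data. The named genes are the 10 members, of each of the 6 related lists the genes that passed and the 2 with the smallest p, and the 3 nearest to Eln, Fbn1 and Fbn2. The marker lists did not follow this rule, and other marker genes that passed are not named. Mmp12, Lox, Acta1, Mylk, Tagln, Scx, Dcn, Comp, Myh2 and Ngfr were added after their values were seen. Members and lists were chosen with earlier results of these data known. Array medians lay between 20.5 and 21.1, and for arrays the signal over background stands for depth. The labels give no batch. Alternatives are quantile normalization, median centring, a pseudocount of 16, only probe sets above the median brightness, the mean of probe sets, an intensity trend, weights for arrays, a block for the replicate number, and arrays left out.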

Additional observations from a re-analysis of the deposited data

How the results depend on the processing

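Of 150 log2 changes of the 10 genes under 15 alternatives, 138 kept their direction and stayed short of the threshold, 4 passed (Eln and Fbln2, both higher on day 7, in 2 alternatives each) and 8 changed sign. The changes of sign concern Fbn1 (-0.014 to 0.16 without arrays), Mfap5 (-0.019 to 0.13) and Efemp2 (-0.082 to 0.11 without arrays, 0.098 with quantile normalization and 0.067 with array weights), all near 0. The cause was not tested.

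With limma, the number of the 10 genes that passed was 0, was 1 with array weights and lay between 0 and 2 without arrays, and 4 had an unadjusted p under 0.05. Over all genes 722 passed (274 higher on day 7 and 448 lower, against 352 and 319 with quantile normalization), 1435 with array weights, and between 4 (without day 7 replicate 1) and 837 (without both arrays numbered 2) without arrays. Of the 56 related genes 3 passed (1 higher on day 7 and 2 lower), 4 with quantile normalization (4 and 0), 1 with a pseudocount of 16, 6 with probe sets above the median brightness, where fewer are tested, 5 with an intensity trend, 8 with array weights (6 and 2), and between 0 and 6 without arrays. With the replicate block 33 of all genes, 0 of the related genes and 0 of the 10 passed. Same-numbered arrays deviated from their age means with correlations of 0.05, -0.25 and -0.14. With 3 arrays of each age these cannot decide whether the numbers pair the arrays, and the labels state no pairing. The 3 differences between genes kept their direction in the alternatives run for them (quantile normalization, a pseudocount of 16, the mean of probe sets and arrays left out). The number of arrays and the signal over background limit what these values show: the smallest log2 change that would have passed was 1.11 for Eln and 1.12 for Fbn2.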
